A study of Arabidopsis thaliana with 12 samples.

Results

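Seedlings of the Arabidopsis thaliana line DPB2oe12.1.5, which overexpresses DPB2, were set against seedlings of the mutant abo4-1, each with 3 libraries chosen by their genotype labels, so that 6 of the study's 12 libraries entered the comparison. Both groups are Col-0 ecotype seedlings at Boyes growth stage 1.02, grown on 0.5x MS medium at 65% humidity and 20 °C with 16 h of light and no treatment. The other 6 libraries are wild-type Col-0 and a further overexpressing line, DPB2oe1.11.5, with 3 each. Col-0 levels are given beside many of the results. Levels of DPB2oe1.11.5 are printed only for DPB2, MIOX4, the phloem and xylem markers and, in part, the seed and embryo markers. The plots of levels by genotype show all 12 libraries. Which other differences the overexpressing lines share was not tested. The study asked which transcripts change when DNA polymerase epsilon is deficient, by an altered dose of a subunit or by a mutant. The labels do not give the promoter of the overexpression, whether a line is 1 transformant, the lesion of abo4-1, the hour of harvest or whether replicates were grown separately. The p-values below therefore measure only the spread between libraries, which may be technical. In the main edgeR fit that spread was estimated over all 12 libraries.

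DNA polymerase epsilon copies the leading strand of the replication fork. POL2A, the gene known by the abo4 alleles, encodes its catalytic subunit, and DPB2 encodes its second subunit, which connects the polymerase to the replicative helicase. In plants, stalled forks and DNA breaks are signalled through the kinases ATR and ATM and the transcription factor SOG1, which raises repair genes and inhibitors of cyclin-dependent kinases and slows the cell cycle.

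Of 19924 loci tested, 142 (0.713%) differed between DPB2oe12.1.5 and abo4-1 at an adjusted p under 0.05 in edgeR's quasi-likelihood test with Benjamini-Hochberg adjustment. In DPB2oe12.1.5, 74 loci (0.371%) were higher and 68 (0.341%) lower, and all log2 changes below are DPB2oe12.1.5 minus abo4-1. The libraries of the groups did not overlap at any of the 142. Over all loci tested, 8.91% had all DPB2oe12.1.5 libraries above and 10.3% all below those of abo4-1. The same libraries decided the calls, so this separation adds no support. Beside DPB2 itself, the higher group held the trichome regulators GL2, GL1 and MYB23, cutin genes, the floral repressors FLC, MAF4 and MAF5, MIOX4 and chloroplast genome loci. The lower group held DNA damage and deoxynucleotide genes (PARP2, GMI1, XRI1, TSO2, TK1a), meiotic genes (DMC1, MER3), a B1 cyclin, the floral gene SEP3 and 2 lipid transfer proteins.

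**Figure D1:**
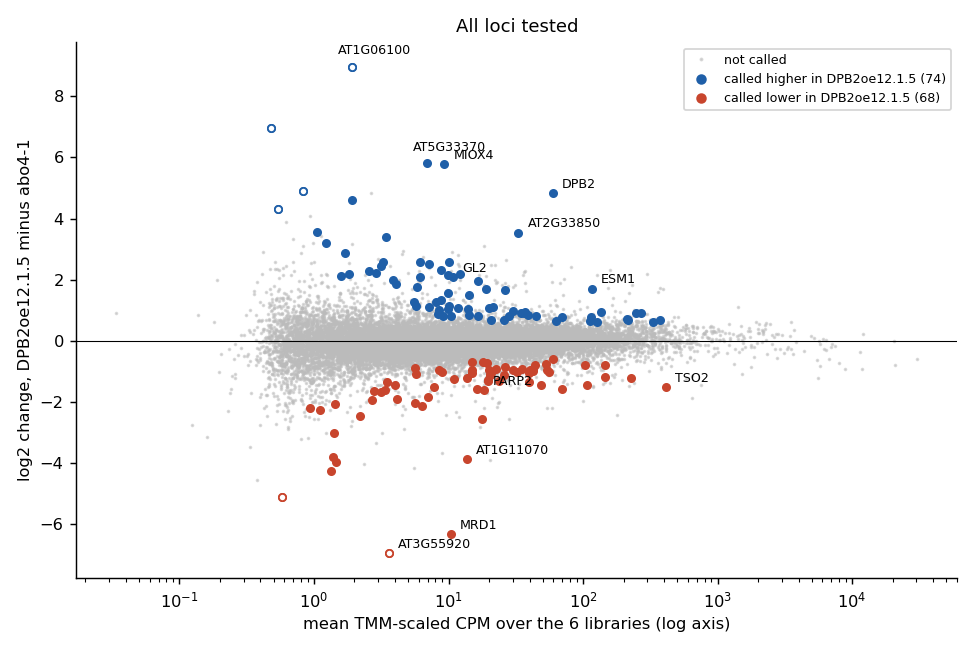
Each point is 1 of the 19924 loci tested, with its mean level over the 6 libraries in TMM-scaled CPM (counts per 1000000 counted reads) on a log axis and its log2 change on the vertical axis. Blue points are the 74 loci called higher and red points the 68 called lower in DPB2oe12.1.5, and open points are called loci with 0 to 2 counts in 1 of the groups, whose fitted change is no bound.

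Counted reads ran from 12205407 to 14067962 per DPB2oe12.1.5 library and from 11587683 to 18877014 per abo4-1 library. The median log2 change over all loci tested was -0.01. LHY, a morning gene of the circadian clock, differed widely within groups: 202, 197 and 40.02 CPM in the DPB2oe12.1.5 libraries and 26.6, 173 and 3.97 in the abo4-1 libraries, in replicate order. PRR5, an afternoon clock gene, ran the opposite way, at 0.723, 1.495 and 8.50 CPM against 8.62, 0.279 and 51.8. Clock-phase values are therefore not balanced between the groups, and 2 DPB2oe12.1.5 libraries and 1 abo4-1 library were among the 4 highest for LHY in the study. With a clock score as a covariate 258 loci were called (0.713% of loci higher and 0.582% lower), 137 of them among the 142. A fit without the 4 libraries highest in LHY keeps 1 DPB2oe12.1.5 library, and its median log2 change was -0.02.

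The targeted gene followed the label. DPB2 (AT5G22110, chromosome 5, 7330825 to 7334282 in TAIR10.1) stood at 117, 110 and 117 CPM in the DPB2oe12.1.5 libraries and at 3.45, 4.53 and 4.16 CPM in abo4-1. It lay at 1.76 to 4.14 CPM in Col-0 and 106 to 118 CPM in DPB2oe1.11.5. The groups did not overlap, and the log2 change was 4.83 ± 0.23 (SE, adjusted p = 4.09e-07, edgeR quasi-likelihood test). The remaining subunits did not pass the test. POL2A (AT1G08260) had 26.4, 20.12 and 16.5 CPM in DPB2oe12.1.5 against 26.4, 25.5 and 24.1 in abo4-1, which overlap (log2 change -0.27 ± 0.17, adjusted p = 0.483), beside 15.7 to 17.36 CPM in Col-0. The study design calls abo4-1 a knock-out, while its POL2A transcript level stood above every Col-0 library. DPB3-1, a histone-fold subunit, had a log2 change of 0.37 ± 0.21 (adjusted p = 0.443), and DPB4, its histone-fold partner, -0.55 ± 0.22 (adjusted p = 0.268). POL2B, the second catalytic subunit gene, had 9 counts against 12 and was too low to test.

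The DNA damage genes PARP2, GMI1 and XRI1 were lower in DPB2oe12.1.5 than in abo4-1, and in both groups above every Col-0 library. PARP2, which marks DNA breaks with poly(ADP-ribose), had 10.5, 8.16 and 8.42 CPM in DPB2oe12.1.5 against 26.7, 30.5 and 26.2 in abo4-1, with 3.51 to 5.15 in Col-0. All 3 DPB2oe12.1.5 libraries lay between those of Col-0 and abo4-1, and the log2 change was -1.62 ± 0.17 (adjusted p = 0.000583, edgeR). GMI1, a cohesin-related repair gene induced by gamma irradiation and mitomycin C, had 12.1, 11.8 and 9.91 CPM against 26.9, 32.4 and 25.4 (log2 change -1.32 ± 0.17, adjusted p = 0.00282), with 4.28 to 6.004 in Col-0. XRI1, an X-ray-induced gene, had 13.5, 12.7 and 12.3 CPM against 26.4, 34.0 and 22.5 (log2 change -1.11 ± 0.19, adjusted p = 0.0185). It too lay in between, with Col-0 at 4.78 to 7.24.

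**Figure D2:**
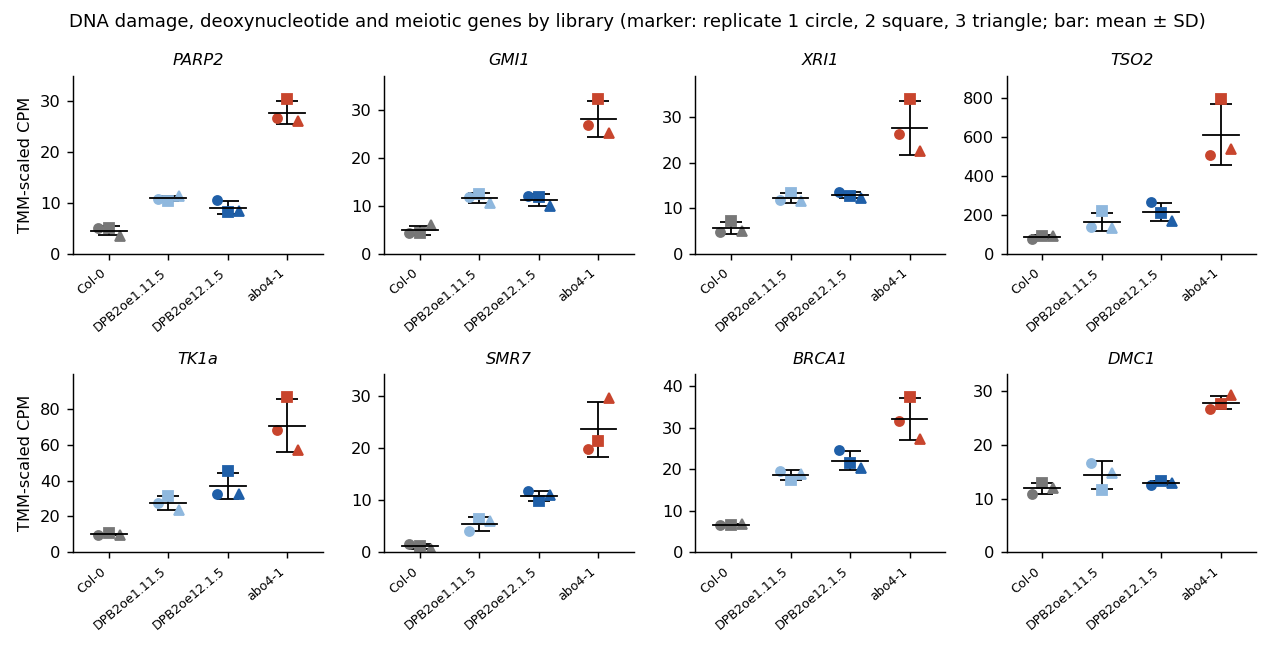
TMM-scaled CPM of 8 genes in each of the 12 libraries, by genotype, with 1 panel per gene, a marker per library and the mean ± SD of 3 libraries. PARP2, GMI1, XRI1, TSO2 and TK1a step up from Col-0 over DPB2oe12.1.5 to abo4-1 without overlap, DMC1 is high in abo4-1 only, and SMR7 and BRCA1 are ordered alike but were not called.

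The 300-base windows around the starts of PARP2 and AT1G11070 are shown because each gene was lower in DPB2oe12.1.5 and each window holds the 13-base site that SOG1 is known to bind. They run from 250 bases before to 50 bases from the annotated gene start, cut from the TAIR10.1 genome and written on the gene's strand, and capitals mark the fixed letters of CTTNNNNNNNAAG.
PARP2 (chr4:1049516-1049815, plus strand): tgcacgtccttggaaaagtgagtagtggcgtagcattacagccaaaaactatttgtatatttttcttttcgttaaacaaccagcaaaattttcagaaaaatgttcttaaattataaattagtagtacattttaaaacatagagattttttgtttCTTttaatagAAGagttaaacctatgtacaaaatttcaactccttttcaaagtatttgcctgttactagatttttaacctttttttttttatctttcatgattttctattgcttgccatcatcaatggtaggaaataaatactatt
AT1G11070 (chr1:3694151-3694450, minus strand): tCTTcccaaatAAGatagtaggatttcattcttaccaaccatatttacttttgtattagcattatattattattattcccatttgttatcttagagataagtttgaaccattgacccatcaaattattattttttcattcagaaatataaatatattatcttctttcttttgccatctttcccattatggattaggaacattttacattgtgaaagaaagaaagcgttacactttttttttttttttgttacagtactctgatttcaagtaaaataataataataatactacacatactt
The match began 96 bases before the start of PARP2 and 249 bases before that of AT1G11070. The windows of GMI1, XRI1, TSO2 and TK1a, also lower in DPB2oe12.1.5, held no match. This motif, which reads the same on both strands, was found in 9 of 68 windows of the lower loci (13.2%), 3 of 64 windows of the higher nuclear loci (4.69%) and 2153 of 19792 windows of all tested loci (10.9%). The E2F sites TTTCCCGC and TTTGGCGC, searched on both strands, occurred in none of the 68 windows of lower loci, and in 0.819% and 0.520% of all windows. A match is a run of letters and does not show binding, nor does its lack show the reverse.

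AT1G11070, annotated as a hydroxyproline-rich glycoprotein, had 1.29, 1.63 and 2.26 CPM in DPB2oe12.1.5 against 24.4, 23.6 and 28.8 in abo4-1 (log2 change -3.88 ± 0.41, adjusted p = 0.000802). Its Col-0 libraries lay at 2.14 to 4.197 CPM, so that abo4-1 was high beside both Col-0 and DPB2oe12.1.5.

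Of 12 tested DNA damage signalling and checkpoint genes, 2 were called lower, where 0.341% of all loci were, and none higher. All 12 log2 changes were negative, with a median of -0.44. RAD17, a checkpoint clamp loader, had a log2 change of -1.11 ± 0.25 that missed the threshold (adjusted p = 0.0635, chosen after its values were seen). Of the sensors and the relay themselves, ATM had a log2 change of -0.19, ATR -0.37 and SOG1 -0.15, with adjusted p of 0.663, 0.517 and 0.770. None of the 22 homologous recombination genes was called by edgeR, with a median of -0.50 and 18 of 22 negative. At an unadjusted p under 0.05, 8 of the 22 were lower, where 8.01% of all loci were, and DESeq2 called 2 of them lower, where it called 1.35% of the same loci lower. The one with the lowest p, MIM, an SMC family protein, had -0.71 ± 0.17 (adjusted p = 0.0822). BRCA1, chosen after its values were seen, had 24.5, 21.5 and 20.203 CPM against 31.5, 37.4 and 27.2, groups that did not overlap (log2 change -0.54 ± 0.14, adjusted p = 0.0999). Of 11 poly(ADP-ribose) polymerase and end-joining genes, PARP2 was the one called, and the list's median was -0.16.

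SMR7, a SIAMESE-related inhibitor of cyclin-dependent kinases known as a SOG1 target, had 11.7, 9.79 and 10.9 CPM in DPB2oe12.1.5 against 19.8, 21.4 and 29.6 in abo4-1, against 0.584 to 1.52 in Col-0. Its log2 change of -1.12 ± 0.26 did not pass (adjusted p = 0.0664), and it passed with the clock covariate (adjusted p = 0.0434). None of the 5 tested SIAMESE family genes was called by edgeR, 1 was lower at an unadjusted p under 0.05 and 1 by DESeq2. Of all loci tested, 8.01% and 1.35% were lower by the same measures. None of the 7 Kip-related inhibitors was called, by either tool or at an unadjusted p under 0.05. KRP4 had the lowest p of the latter, with 0.41 ± 0.21 (adjusted p = 0.383).

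The calls of PARP2 and GMI1 held in all 6 fits that left out 1 library. That of XRI1 was lost without any 1 of the 3 DPB2oe12.1.5 libraries or without abo4-1 replicate 1 (adjusted p up to 0.0915).

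Enzymes of deoxynucleotide supply were lower in 2 of 9 tested cases, against 0.341% of all loci. TSO2, a small subunit of ribonucleotide reductase, had 263, 209 and 167 CPM in DPB2oe12.1.5 against 506, 793 and 534 in abo4-1, with 75.3 to 92.1 in Col-0. The groups did not overlap, and the log2 change was -1.52 ± 0.24 (adjusted p = 0.0114, edgeR). TK1a, a thymidine kinase of the salvage pathway, had 32.6, 45.2 and 32.7 CPM against 68.3, 86.7 and 57.4 (log2 change -0.94 ± 0.18, adjusted p = 0.0343), again with Col-0 lowest at 9.62 to 10.5. The large subunit RNR1 had -0.27 ± 0.16 and did not pass (adjusted p = 0.437). The median of the 9 was -0.05. The TSO2 call was lost without DPB2oe12.1.5 replicate 2 (adjusted p = 0.0743), and that of TK1a in 4 of the 6 fits that left out 1 library, namely without DPB2oe12.1.5 replicate 1 or 3 or abo4-1 replicate 1 or 2 (up to 0.119).

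Among 47 tested DNA replication genes 1 was called lower, where 0.341% of all loci were, and none higher. POLD4, a small subunit of DNA polymerase delta, had 23.7, 16.8 and 23.0 CPM in DPB2oe12.1.5, within or just below the 21.3 to 25.7 of Col-0, and 39.5, 41.3 and 48.6 in abo4-1 (log2 change -1.03 ± 0.17, adjusted p = 0.0169). The list's median was -0.24, with 36 of 47 negative, against 10197 of 19924 loci. At an unadjusted p under 0.05, 11 of the 47 were lower, where 8.01% of all loci were, and DESeq2 called 1 lower, against 1.35%. None of the 19 G1/S genes was called by edgeR or DESeq2, 2 were higher and 3 lower at an unadjusted p under 0.05 (6.89% and 8.01% of all loci), and their median was 0.00. CYCD1;1, the D-type cyclin with the lowest p there, had -0.52 ± 0.20 (adjusted p = 0.248). None of the 20 tested histone genes was called by edgeR, while DESeq2 called 1 higher, where it called 1.64% of all loci tested higher, and an unadjusted p under 0.05 was reached by 1 higher and 1 lower, and HTB11, a histone H2B gene, had 0.57 ± 0.16 (adjusted p = 0.114).

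The G2/M list had 1 member called lower, where 0.341% of all loci were, and a shared direction. Of its 37 members, 36 had a negative log2 change, against 10197 of 19924 loci, and the median was -0.48. At an unadjusted p under 0.05, 18 of the 37 were lower, where 8.01% of all loci were, and DESeq2 called 8 lower, against 1.35%. CYCB1;4, a mitotic B1 cyclin, had 11.3, 9.92 and 8.89 CPM in DPB2oe12.1.5 against 18.1, 20.6 and 20.4 in abo4-1 (log2 change -0.97 ± 0.17, adjusted p = 0.0192). Its Col-0 libraries lay at 9.83 to 12.4 CPM, beside those of DPB2oe12.1.5. The window of CYCB1;4 is printed with its AACGG letters in capitals, the core of the mitosis-specific activator element that MYB3R factors are known to bind, read on either strand.
CYCB1;4 (chr2:11400868-11401167, plus strand): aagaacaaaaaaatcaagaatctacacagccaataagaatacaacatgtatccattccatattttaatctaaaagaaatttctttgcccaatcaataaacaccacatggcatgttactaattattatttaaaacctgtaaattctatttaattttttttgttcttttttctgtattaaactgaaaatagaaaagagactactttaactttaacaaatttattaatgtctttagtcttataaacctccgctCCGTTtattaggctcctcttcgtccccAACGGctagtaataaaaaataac
One match began at the annotated start itself and the other 27 bases after it. This short motif was present in 23 of 68 windows of lower loci (33.8%), 17 of 64 of higher loci (26.6%) and 26.2% of all windows. The CYCB1;4 call was lost without DPB2oe12.1.5 replicate 2 or 3 or abo4-1 replicate 1 or 3 (adjusted p up to 0.0923), and the POLD4 call without DPB2oe12.1.5 replicate 2 or abo4-1 replicate 3 (up to 0.0822).

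**Figure D3:**
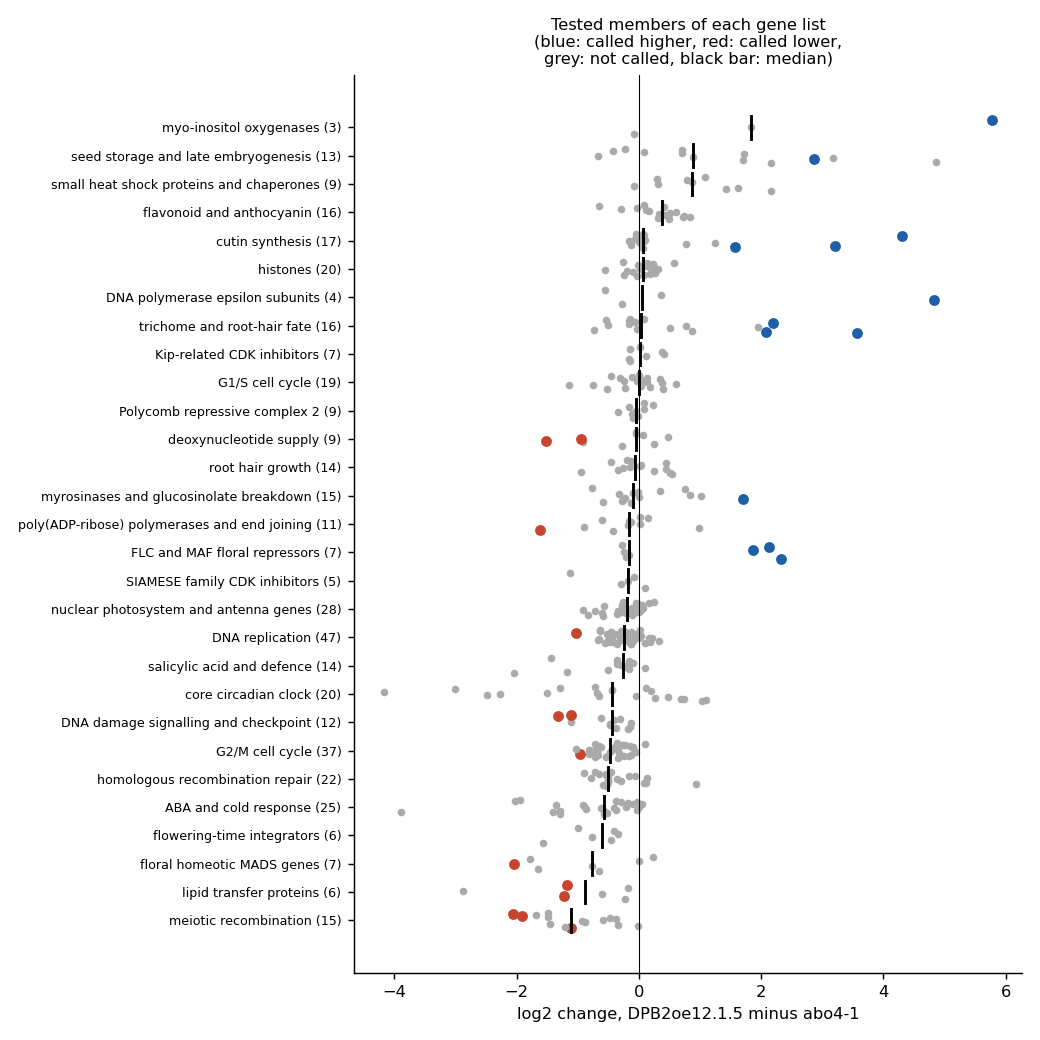
Log2 change of every tested member of 29 gene lists, with the number tested in brackets, called members in blue or red and the median of each list as a black bar. The G2/M, DNA damage and meiotic lists lie mostly left of 0, at medians of -0.48, -0.44 and -1.11, while the cutin, trichome and FLC and MAF lists hold 3 called higher members each around medians near 0.

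Genes of meiotic recombination, whose products pair and exchange homologous chromosomes in flowers, were lower in 3 of 15 tested cases, against 0.341% of loci. All 15 log2 changes were negative, with a median of -1.11. DMC1, the meiotic strand-exchange recombinase, had 12.5, 13.3 and 12.9 CPM in DPB2oe12.1.5 against 26.8, 27.7 and 29.2 in abo4-1 (log2 change -1.11 ± 0.15, adjusted p = 0.00409). Its level in DPB2oe12.1.5 was that of Col-0, at 10.8 to 12.9 CPM. MER3, a crossover helicase, had 22 counts against 101 (log2 change -2.06 ± 0.40, adjusted p = 0.0393), and this call was lost without any 1 of the 6 libraries (adjusted p 0.0635 to 0.147). The pollen and flower markers summed to at most 1.29 CPM in every library, and none was high enough to test.

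HEI10, a crossover ligase gene, had 1.37, 2.11 and 1.72 CPM in DPB2oe12.1.5 against 6.56, 5.58 and 7.55 in abo4-1 (log2 change -1.91 ± 0.25, adjusted p = 0.00282), but it overlaps another called locus. MRD1 (AT1G53480, chromosome 1, 19963047 to 19964712) lies on the opposite strand and shares 1446 bases with HEI10 (19963267 to 19966952). MRD1 had 20.13, 23.8 and 17.7 CPM in abo4-1 and 10 counts in all 3 DPB2oe12.1.5 libraries together, with 0 to 0.326 CPM in Col-0 (log2 change -6.33 ± 0.50, adjusted p = 7.94e-05). The libraries were stranded, but whether the counting used the strand is not given in the sources used here, so the reads of the pair cannot be told apart. The window at the start of HEI10 is printed because its capitals, the bases from the HEI10 start on, also lie inside MRD1.
HEI10 (chr1:19963017-19963316, plus strand): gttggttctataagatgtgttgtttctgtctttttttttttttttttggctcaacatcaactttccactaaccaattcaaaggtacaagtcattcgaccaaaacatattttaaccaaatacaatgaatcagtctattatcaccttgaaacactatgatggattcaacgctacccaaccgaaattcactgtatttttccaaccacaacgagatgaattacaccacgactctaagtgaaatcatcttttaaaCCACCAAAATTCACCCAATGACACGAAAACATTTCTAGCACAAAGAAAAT
From the base 19963047 on, this window is also annotated as MRD1 read from the other strand. Of the 142 called loci, 26 overlap a locus on the opposite strand, among them FLC, GL2, GMI1, MER3 and DPB2. The share among all loci tested was not counted. The limit holds for reads inside the shared bases: 6067 for FLC, 524 for MER3, 198 for GL2, 106 for DPB2 and 19 for GMI1.

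Other single loci were also much lower in DPB2oe12.1.5 than in abo4-1. AT3G55920, annotated as a cyclophilin, had 7.005, 6.97 and 7.46 CPM in abo4-1 and 2 counts in the 3 DPB2oe12.1.5 libraries against 303, a ratio of 142 (95% counting interval 39.0 to 1178, counting error only). It was listed at 0 to 0.106 CPM in Col-0, so that abo4-1 stood apart from Col-0 and DPB2oe12.1.5. This locus was chosen after its values were seen. AT5G60250, annotated as a C3HC4 RING finger protein, had 6.27, 5.17 and 3.82 CPM against 23.2, 35.8 and 31.6 (log2 change -2.57 ± 0.28, adjusted p = 0.000802), with Col-0 at 0.744 to 1.76. HDA18, a histone deacetylase known for root epidermal patterning, had a log2 change of -2.12 ± 0.28 (adjusted p = 0.00348), from 8.43 to 12.3 CPM in abo4-1 to 1.77 to 3.13 in DPB2oe12.1.5. AT3G58270, with a phospholipase-like product, followed the same order at -1.83 ± 0.23 (adjusted p = 0.00208).

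In 5 more of the named lower genes all DPB2oe12.1.5 libraries lay below all Col-0 libraries. CDEF1, a cutinase of the GDSL lipase family, had 39.2, 41.4 and 24.0 CPM in DPB2oe12.1.5 against 75.8, 99.8 and 138 in abo4-1, with 105 to 125 in Col-0 (log2 change -1.58 ± 0.23, adjusted p = 0.00777). The subtilisin-like proteases AT2G39850 and AT4G21650 had log2 changes of -1.57 ± 0.19 and -1.45 ± 0.12, with adjusted p of 0.00201 and 0.000124. For AT2G39850, DPB2oe12.1.5 lay at 7.96 to 8.50 CPM, Col-0 at 21.0 to 23.2 and abo4-1 at 23.1 to 25.3. PME5, a pectin methylesterase (log2 change -1.43 ± 0.24, adjusted p = 0.0185), and AT4G17470, an alpha/beta-hydrolase product (-1.51 ± 0.28, adjusted p = 0.0340), had the same order. Their calls were each lost in 4 of the 6 fits without 1 library: for PME5 without DPB2oe12.1.5 replicate 2 or 3 or abo4-1 replicate 1 or 3 (adjusted p up to 0.0958), and for AT4G17470 without any 1 DPB2oe12.1.5 library or abo4-1 replicate 3 (up to 0.147).

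All 6 lipid transfer protein genes had negative log2 changes, and 2 were called lower, where 0.341% of all loci were. LTP2 had 153, 113 and 139 CPM in DPB2oe12.1.5 against 276, 245 and 427 in abo4-1 (log2 change -1.22 ± 0.21, adjusted p = 0.0201), with Col-0 between them at 174 to 200. LTP6 had 108, 85.0 and 75.6 CPM against 171, 180 and 252 (-1.17 ± 0.20, adjusted p = 0.0183), again around a Col-0 range of 139 to 146. LTP1 had a log2 change of -0.24 and did not pass (adjusted p = 0.537). Reads with several hits were removed before counting, so counts of such similar genes are less certain. The LTP2 call was lost without any 1 DPB2oe12.1.5 library or abo4-1 replicate 3 (adjusted p up to 0.0989), and that of LTP6 without DPB2oe12.1.5 replicate 2 or 3 or abo4-1 replicate 3 (up to 0.0920).

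Trichome genes were higher in DPB2oe12.1.5, where they stood near Col-0, and low in abo4-1. GL2, the homeodomain factor that acts in trichome and root epidermis fate, had 17.0, 17.1 and 18.175 CPM in DPB2oe12.1.5 against 3.67, 3.21 and 5.62 in abo4-1, with 16.7 to 20.7 in Col-0. The log2 change was 2.08 ± 0.20 (adjusted p = 0.000241, edgeR). MYB23, a MYB factor of trichome formation, had 3.13, 2.99 and 2.89 CPM against 0.834, 0.418 and 0.678 (2.196 ± 0.328, adjusted p = 0.00777), with Col-0 at 1.78 to 3.08. GL1, its close relative that starts trichomes, had 80 counts against 7 (3.57 ± 0.74, adjusted p = 0.0448), but 1 Col-0 library was as low as the abo4-1 ones, at 0.0978 CPM, and the call was lost without any 1 of the 6 libraries (adjusted p 0.0737 to 0.167). These 3 were the called members among 16 tested, where the median was 0.03, and 0.371% of all loci were called higher. The shared partners GL3, EGL3 and TTG1 did not pass, with log2 changes of 0.87, -0.74 and -0.03. None of 14 root hair growth genes was called by edgeR or DESeq2, none reached an unadjusted p under 0.05, and RHD2, an NADPH oxidase of root hair tips, had 0.44 ± 0.21 (adjusted p = 0.336).

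Cutin, the polyester of the plant surface, is built from hydroxylated fatty acids. Of 17 tested cutin genes 3 were called higher, where 0.371% of all loci were, and none lower, around a median of 0.07. CYP86A4 and CYP86A7, fatty acid hydroxylases, had log2 changes of 1.57 ± 0.26 (adjusted p = 0.0183) and 3.21 ± 0.46 (adjusted p = 0.00588). CYP86A4 had 19.3, 13.1 and 12.2 CPM in DPB2oe12.1.5 against 3.28, 5.16 and 6.78 in abo4-1, and CYP86A7 had 90 counts against 10. SHN2, a SHINE factor known to activate cutin genes, had 43 counts against 2, a ratio of 22.9 (95% counting interval 5.98 to 196), with an adjusted p of 0.0217. In each of the 3 genes the DPB2oe12.1.5 levels overlapped the Col-0 levels, and abo4-1 lay below both. The pathway members GPAT4, GPAT6, GPAT8, LACS2, DCR and BDG had log2 changes of -0.17 to 0.08 and none passed. The CYP86A4 call was lost without replicate 1 of either group (adjusted p up to 0.0690), and the SHN2 call without DPB2oe12.1.5 replicate 2 or abo4-1 replicate 3 (up to 0.0923).

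**Figure D4:**
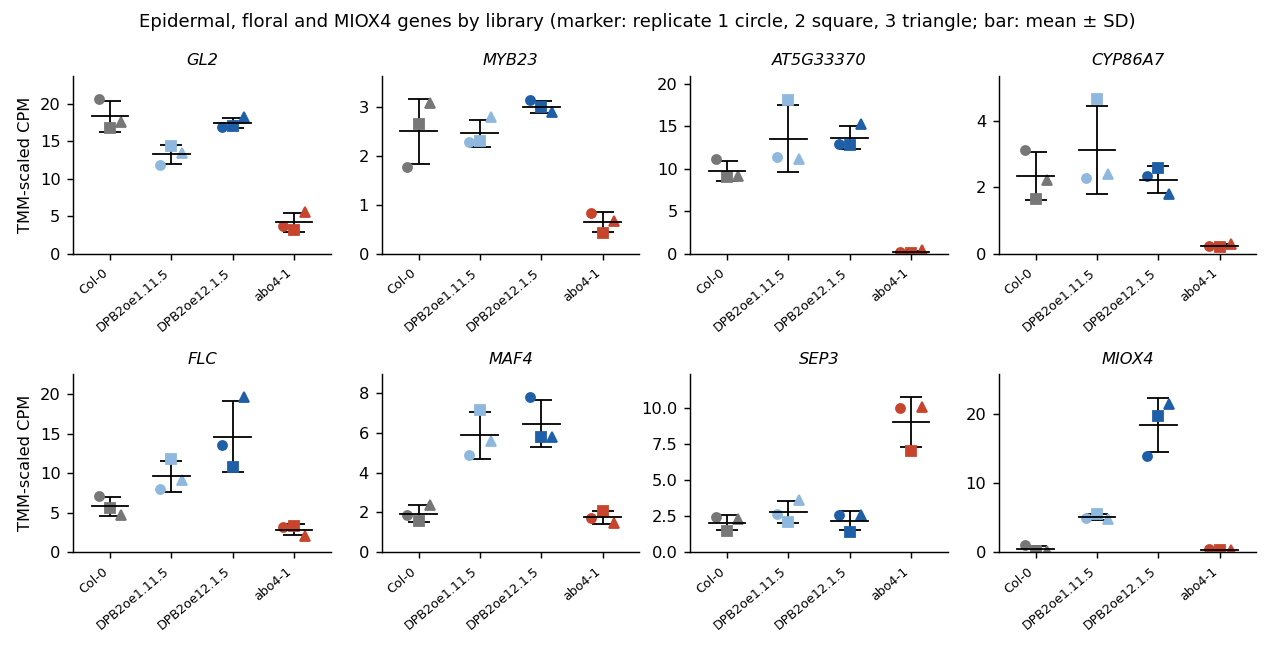
TMM-scaled CPM of 8 genes in each of the 12 libraries, by genotype, with 1 panel per gene, a marker per library and the mean ± SD of 3 libraries. GL2, MYB23, AT5G33370 and CYP86A7 are low in abo4-1 alone, SEP3 is high in abo4-1 alone, FLC steps from abo4-1 over Col-0 to DPB2oe12.1.5, MAF4 is high in both overexpressors, and MIOX4 is highest in DPB2oe12.1.5.

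Among the largest called changes, 2 further genes were near 0 or low in abo4-1 and above Col-0 in DPB2oe12.1.5. AT5G33370, annotated as a GDSL lipase, had 12.9, 12.8 and 15.3 CPM in DPB2oe12.1.5 against 0.222, 0.139 and 0.387 in abo4-1 (log2 change 5.81 ± 0.33, adjusted p = 1.62e-06), with Col-0 at 9.001 to 11.1. AT2G33850, an E6-like protein, had 47.9, 65.6 and 69.3 CPM against 5.34, 2.44 and 8.14 (3.54 ± 0.36, adjusted p = 0.000952), with Col-0 at 39.5 to 45.9. In both genes all abo4-1 libraries lay below and all DPB2oe12.1.5 libraries above those of Col-0. Chosen after their values were seen, the wax genes CER1 and KCS5 had log2 changes of 0.98 ± 0.14 and 1.06 ± 0.15 (adjusted p = 0.00548 and 0.00530). CER1 had 37.7 to 44.2 CPM in DPB2oe12.1.5, 19.0 to 21.8 in abo4-1 and 45.3 to 55.1 in Col-0, so both groups lay below Col-0, while KCS5 at 24.4 to 30.5 CPM in DPB2oe12.1.5 overlapped the 30.4 to 34.8 of Col-0. AT1G06100, annotated as a fatty acid desaturase and chosen in the same way, had 152 counts in DPB2oe12.1.5 and 0 in abo4-1, which is at least 54.1-fold higher against a floor of 3 counts over the group, and 1.23 to 2.74 CPM in Col-0. ZIP7, a zinc transporter also so chosen, had 38 counts against 0 and was at least 13.5-fold higher. ESM1, which steers glucosinolate breakdown away from nitriles, was the 1 called higher of 15 myrosinase and breakdown genes, where 0.371% of all loci were. It had 223, 190 and 123 CPM in DPB2oe12.1.5 against 50.04, 61.1 and 53.6 in abo4-1 (log2 change 1.70 ± 0.21, adjusted p = 0.00201), both below the 289 to 432 of Col-0.

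Floral repressors were higher and a floral organ gene lower in DPB2oe12.1.5. FLC, the MADS repressor that delays flowering, had 13.6, 10.7 and 19.6 CPM in DPB2oe12.1.5 against 3.22, 3.35 and 2.03 in abo4-1, with Col-0 between them at 4.73 to 7.07. The log2 change was 2.33 ± 0.28 (adjusted p = 0.00167, edgeR). Its relatives MAF4 and MAF5, which neighbour each other on chromosome 5, had log2 changes of 1.86 ± 0.25 (adjusted p = 0.00443) and 2.13 ± 0.44 (adjusted p = 0.0437). MAF4 had 7.80, 5.78 and 5.77 CPM against 1.72, 2.09 and 1.45, where abo4-1 overlapped the Col-0 range of 1.57 to 2.39 and DPB2oe12.1.5 lay above it. The MAF5 call was lost without any 1 of the 6 libraries (adjusted p 0.0673 to 0.179). The other 4 members, MAF1, MAF2, MAF3 and SVP, had log2 changes of -0.28 to -0.16 and none passed.

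SEP3, a MADS factor of floral organ identity, had 2.57, 1.43 and 2.57 CPM in DPB2oe12.1.5, which overlap Col-0, and 10.01, 7.04 and 10.1 in abo4-1 (log2 change -2.05 ± 0.30, adjusted p = 0.00733). It was the 1 called lower of 7 tested floral homeotic genes, out of 13 listed, where 0.341% of all loci were. The list's median was -0.78, and 3 of the 7 were lower at an unadjusted p under 0.05 (8.01% of all loci). SOC1, a flowering integrator that FLC is known to repress, had 6.27, 5.51 and 13.2 CPM against 28.7, 16.1 and 29.4, groups that did not overlap. Its log2 change of -1.57 ± 0.38 did not pass (adjusted p = 0.0879), and it passed with the clock covariate (adjusted p = 0.00844). None of the 6 tested flowering integrators was called by edgeR, 3 were lower at an unadjusted p under 0.05 and 1 by DESeq2. Of all loci tested, 8.01% and 1.35% were lower by the same measures. None of the 9 tested Polycomb repressive complex 2 genes was called by either tool or at an unadjusted p under 0.05, where the median was -0.04 and VRN5, a partner of that complex, had 0.24 ± 0.13 (adjusted p = 0.405). Leaving out the 4 libraries highest in LHY left replicate 3 as the only DPB2oe12.1.5 library. The log2 changes were then 2.86 for FLC, 1.845 for MAF4 and -1.96 for SEP3.

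MIOX4, a myo-inositol oxygenase that opens the route from inositol to glucuronate, was high in the overexpressor. It had 13.9, 19.6 and 21.4 CPM in DPB2oe12.1.5 against 0.389, 0.279 and 0.291 in abo4-1, with 0.0978 to 1.01 in Col-0 and 4.82 to 5.51 in DPB2oe1.11.5. The log2 change was 5.78 ± 0.49 (adjusted p = 0.000125), and the call held in all 6 fits without 1 library. MIOX2 had 22.4, 13.1 and 50.2 CPM against 11.5, 5.02 and 7.36, and its log2 change of 1.83 ± 0.54 did not pass (adjusted p = 0.155).

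PAP85, a vicilin-like seed storage protein, had 3.54, 4.28 and 1.25 CPM in DPB2oe12.1.5 against 0.612, 0.279 and 0.291 in abo4-1 (log2 change 2.86 ± 0.59, adjusted p = 0.0448). It was the 1 called higher of 13 tested seed genes, out of 24 listed, where 0.371% of all loci were. The list's median was 0.88 with 10 positive, against 9727 of 19924 loci. At an unadjusted p under 0.05, 4 of the 13 were higher (6.89% of all loci), and DESeq2 called 2 higher (1.64%). The seed and embryo markers summed to 21.5, 19.3 and 1.72 CPM in DPB2oe12.1.5 against 2.89, 0.767 and 1.16 in abo4-1. DPB2oe12.1.5 replicates 1 and 2, both high in LHY, thus carried them. Among other libraries high in LHY, DPB2oe1.11.5 replicate 2 summed to 7.43 CPM and abo4-1 replicate 2 to 0.767. A link to LHY was not tested. LEC1 and FUS3, which define the embryo, were too low to test. The PAP85 call was kept without DPB2oe12.1.5 replicate 3 and lost without any 1 of the other 5 libraries (adjusted p up to 0.179).

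Chloroplast genome loci, grouped after their values were seen, were higher in 10 of 80 tested cases, against 0.371% of all loci, and lower in none. The median log2 change of the 80 was 1.92. Of the 80, 79 had a positive log2 change, 60 were higher at an unadjusted p under 0.05 (6.89% of all loci), and DESeq2 called 50 higher (1.64% of all loci) and none lower. ATCG00400 had 26.2, 17.0 and 17.0 CPM in DPB2oe12.1.5 against 3.22, 4.04 and 6.10 in abo4-1 (2.19 ± 0.27, adjusted p = 0.00201). ATCG00500 had 24.2, 10.1 and 17.5 CPM against 2.39, 2.44 and 3.87 (2.59 ± 0.39, adjusted p = 0.00976). The reference used here gave no names for these loci. ATCG01090, ATCG01230, ATCG01060 and ATCG00770 had log2 changes of 1.95 to 2.57, and their adjusted p of 0.0245 to 0.0416 rose to 0.133 to 0.178 at most when 1 library was left out, with each of them lost without DPB2oe12.1.5 replicate 1, abo4-1 replicate 1 or abo4-1 replicate 3. ATCG00500 lost its call without abo4-1 replicate 1 (adjusted p = 0.0673). None of 32 mitochondrial genome loci was called by edgeR, 14 were higher at an unadjusted p under 0.05 and 1 by DESeq2, and their median was 1.48.

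Loci of both organelles took 1.54%, 0.825% and 1.201% of counted reads in DPB2oe12.1.5 against 0.255%, 0.542% and 0.712% in abo4-1, against 0.227% to 0.801% in Col-0. The groups did not overlap, and the mean difference of 0.684 percentage points had a two-sided exact permutation p of 0.1, the smallest that 3 against 3 libraries allow. The libraries were made after mRNA selection, and the part of that step in the organelle counts was not tested. With organelle loci left out before scaling, 130 loci were called, all of them among the 142.

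Loci whose product is a ribosomal protein were also grouped after their values were seen. Of 317 tested, 8 were called higher and 1 lower, where 0.371% and 0.341% of all loci were. The median log2 change of the 317 was 0.35. At an unadjusted p under 0.05, 143 of them were higher, where 6.89% of all loci were. Summed over the group the level was 52218, 52280 and 48683 CPM in DPB2oe12.1.5 against 38973, 43866 and 36779 in abo4-1, with Col-0 at 40407 to 43143. All 3 DPB2oe12.1.5 libraries lay above the other 9.

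**Figure D5:**
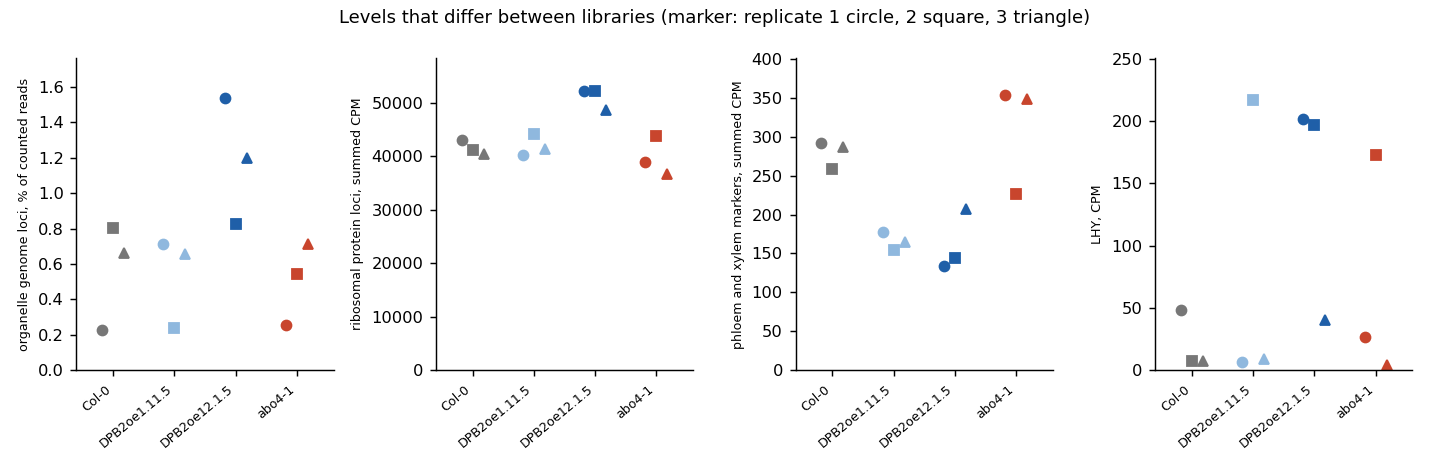
Levels in each of the 12 libraries, by genotype: the share of counted reads on organelle genome loci in percent, the summed CPM of ribosomal protein loci, the summed CPM of 6 phloem and xylem markers, and the CPM of LHY. DPB2oe12.1.5 lies above abo4-1 in the first and second panels and below it in the third, and LHY overlaps between the groups.

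Markers of cell types were set beside these results. All 6 phloem and xylem markers had negative log2 changes, with a median of -0.65. None was called by edgeR, all 6 were lower at an unadjusted p under 0.05 (8.01% of all loci), and DESeq2 called 3 lower (1.35%). Their summed level was 134, 144 and 208 CPM in DPB2oe12.1.5 against 354, 226 and 349 in abo4-1, without overlap. Col-0 lay at 259 to 292 CPM, inside the abo4-1 range, and DPB2oe1.11.5 at 154 to 177. Both overexpressing lines thus lay below every Col-0 library. SUC2, the sucrose carrier of companion cells, had a log2 change of -1.07 (adjusted p = 0.0617). The green tissue markers summed to 42218 to 55125 CPM against 42184 to 52161, which overlap, and the root markers to 2148 to 2960 CPM against 1714 to 2214, so that both shoot and root were present as the seedling label says. None of 6 green tissue, 7 root, 4 meristem or 5 guard cell markers was called by edgeR. At an unadjusted p under 0.05, 1 marker of each of these lists was lower and 1 of guard cells higher, and DESeq2 called 1 root and 1 guard cell marker lower. In seedlings fewer cells of a type and less RNA per cell cannot be told apart, and the part of the vascular markers in the results was not tested.

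Several further lists gave no call in edgeR. Over all loci tested, 6.89% were higher and 8.01% lower at an unadjusted p under 0.05, and DESeq2 called 1.64% higher and 1.35% lower. Of 20 clock genes DESeq2 called none either and 1 was higher and 2 lower at an unadjusted p under 0.05, with FKF1 lowest on the log2 scale at -4.16. RVE4, a clock-related MYB factor, had the lowest p with 0.68 ± 0.25 (adjusted p = 0.235). The ABA and cold response list had 23 of 25 negative values and a median of -0.57, 4 were lower at an unadjusted p under 0.05 and 2 by DESeq2, and PP2CA, a phosphatase of ABA signalling, had -0.91 ± 0.19 (adjusted p = 0.0513). The salicylic acid and defence list had a median of -0.25 over 14 genes, with 4 lower at an unadjusted p under 0.05 and none by DESeq2, and PBS3, an enzyme of salicylic acid synthesis, had -1.43 ± 0.40 (adjusted p = 0.124). Nuclear photosystem and antenna genes had a median of -0.19 over 28, 6 lower at an unadjusted p under 0.05 and 1 by DESeq2, and LHCB6, an antenna protein of photosystem II, had -0.92 ± 0.27 (adjusted p = 0.141). Small heat shock proteins and chaperones had a median of 0.86 over 9, with 4 higher at an unadjusted p under 0.05, none by DESeq2 and HSP17.4 at 2.16 ± 0.67 (adjusted p = 0.155). Flavonoid genes had a median of 0.37 over 16, none at an unadjusted p under 0.05 or by DESeq2, and MYB12, their activator, at 0.61 ± 0.47 (adjusted p = 0.574).

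Beside Col-0 the called loci fell on both sides. Of the 74 higher loci, 52 had all DPB2oe12.1.5 libraries above all Col-0 libraries, and 38 had all abo4-1 libraries below them. Over all loci tested, 11.5% had DPB2oe12.1.5 above and 6.37% had abo4-1 below Col-0. Of the 68 lower loci, 46 had abo4-1 above and 32 had DPB2oe12.1.5 below Col-0, where 8.13% and 11.4% of all loci did, and 10 had DPB2oe12.1.5 above Col-0. The same libraries decided the calls, so these counts are a description. By position, chromosomes 1, 2 and 3 held calls at 32 of 5207, 21 of 3022 and 32 of 3915 tested loci. Chromosomes 4 and 5 held 15 of 3036 and 32 of 4613, and the shares ran from 0.494% to 0.817%. Of 121 windows of 1 Mb with a tested locus, 71 held a call and none more than 6. Shares were highest in windows with few tested loci. On chromosome 3, 3 of 20 tested loci were called from 14000001 to 15000000. In the windows before it, 1 of 5 was called from 12000001 to 13000000 and 0 of 9 from 13000001 to 14000000. The only pairs of called neighbours were MRD1 with HEI10, MAF4 with MAF5, and AT3G53630 with AT3G53650.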

How the data were processed

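mRNA of 12 seedling libraries, 3 for each of 4 genotypes, was read on an Ion Torrent Proton after mRNA selection, from stranded single-end libraries sized to 230 bp, per the labels' protocols. The values are the deposited raw read counts per locus, without scaling, and per the file headers reads with several hits were removed before counting. The submitters' processing notes name the build TAIR10. No aligner, counting tool or strand setting is given in the sources used here. Of 33602 loci, 32835 (97.7%) matched the TAIR10.1 annotation, which gave names, coordinates and the 300-base windows, cut from the RefSeq genome.

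From these counts, 19924 loci passed filterByExpr for the 4 groups. They were TMM-scaled and fitted with edgeR 4.0.16 in R 4.3.3 as 1 quasi-likelihood model of the 4 genotypes over all 12 libraries, so that they share 1 estimate of the spread (common biological coefficient of variation 0.226). DPB2oe12.1.5 and abo4-1 were contrasted, and Benjamini-Hochberg adjusted p-values under 0.05 over all loci tested were called with no fold threshold. CPM are counts per 1000000 scaled by TMM, and counting intervals and floors (3 counts) cover counting error only. The ± value is an approximate SE, the size of the log2 change divided by the square root of its quasi-likelihood F statistic. The script was tested on simulated data first.

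The comparison, the 29 gene lists and the 7 marker lists were chosen with earlier results of these data known, and 479 of their 508 symbols matched. Named genes are the polymerase epsilon subunits, the 12 largest changes in each direction among called loci with libraries that do not overlap and at least 10 CPM in the mean of the higher group, up to 4 called members of each list by lowest adjusted p, and the member with the lowest p of each list without a call, and any other gene is marked as chosen after its values were seen or stands for its list. The alternatives were RLE and upper-quartile scaling, DESeq2 1.42.0, other filters, the 6 libraries alone, a replicate block, leaving out each library, a clock score as covariate, leaving out the 4 libraries highest in LHY and, added after seeing the data, nuclear loci only.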

Additional observations from a re-analysis of the deposited data

How the results depend on the processing

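Against 142 called loci, RLE scaling gave 149, upper-quartile scaling 139, a filter of 1 CPM in 3 libraries 144 and nuclear loci only 130. DESeq2 gave 609, no filter on low counts 222, the clock score covariate 258, the 6 libraries alone 43, and the fit without the 4 libraries of highest LHY 74. That last fit keeps 1 DPB2oe12.1.5 library, which is assumed to vary like the other groups. Fits without 1 library gave 49 to 207 calls: 63, 50 and 91 without DPB2oe12.1.5 replicate 1, 2 and 3, and 52, 207 and 49 without abo4-1 replicate 1, 2 and 3. In all 6 of these, 34 of the 142 calls were kept, and 22 were kept in none. The replicate block gave 187 calls (91 higher, 96 lower). Deviations of libraries with the same number correlated at -0.215, 0.371 and 0.285, so the numbers were not taken as pairs. Of 968 values of named genes under the alternatives, called or not, 124 lost their call and 16 gained one. None that was called in either fit reversed its direction. Uncalled values could change sign, such as HSP17.4, from 2.16 to -0.21 without the 4 libraries of highest LHY. Among others, with 6 libraries alone TSO2, XRI1, TK1a, MYB23 and CDEF1 lost their calls (adjusted p 0.0613, 0.0766, 0.154, 0.0630 and 0.0932 by edgeR), and DMC1, GMI1 and HEI10 were lost without the 4 libraries of highest LHY (0.0579, 0.0503 and 0.0616). The causes were not tested. Depth limits loci of a few counts, such as GL1, MER3, SHN2 and ZIP7.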
